A study of Homo sapiens with 24 samples.

Results

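The genes described here encode the actin cytoskeleton of non-muscle and contractile cells and the adhesion sites to which it is anchored. They are 46 genes chosen by name: 3 actins, 4 tropomyosins, 5 transgelins and calponins, 8 genes of myosin II and its regulators, 8 crosslinkers and scaffolds, 4 genes of actin turnover, 6 focal adhesion genes, 7 PDZ-LIM and LIM-only genes, and the transcription factor SRF. All 46 were found among the 21656 genes kept from the deposited table. Together they took 1.35% to 4.24% of the summed level of a library.

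The libraries hold polyadenylated RNA of 6 lines of human hepatocellular carcinoma: HepG2, Hep3b, HLE, Huh1, Huh7 and SK-HEP1. There were 4 groups per line: control siRNA (siCTL) alone, siCTL with TGF-beta, siRNA against SFPQ (siSFPQ) alone, and siSFPQ with TGF-beta. The TGF-beta dose was 2 ng per ml for 24 hours, and the cells were grown in DMEM with serum. The 24 libraries are 1 per line and group, so the 6 lines serve as the replicates. The p-values set the mean change within a line against the spread of that change over the lines. A second siRNA or a rescue was not analysed here, so effects of the siRNA on other transcripts cannot be told apart from those of SFPQ loss.

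Actin monomers assemble into filaments, tropomyosins coat the filaments, myosin II pulls on them, and alpha-actinins and filamins tie them into bundles and networks. At focal adhesions the bundles are joined to integrins through talin, vinculin, zyxin and paxillin. Many of the genes are targets of SRF, which binds a short DNA element called the CArG box and is released for activity, through the MRTF co-activators (MKL1 and MKL2), when free actin monomer is used up. TGF-beta is a secreted factor that signals through SMAD proteins and is a known inducer of stress fibre genes in epithelial and mesenchymal cells. SFPQ is a nuclear RNA-binding protein of paraspeckles that acts in transcription and splicing.

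Levels are FPKM, fragments per kilobase of each transcript, relative to all fragments of the library. A change is a log2 difference of FPKM + 1, given with its standard error (SE), and it understates the change of low genes. A gene was called where limma's adjusted p, by Benjamini-Hochberg over all genes tested, was under 0.05. SFPQ itself was at 165 ± 59.5 FPKM (SD, n = 6) in siCTL cells and 37.2 ± 11.5 in siSFPQ cells, and with TGF-beta at 158 ± 59.0 and 38.1 ± 10.4. The level left in siSFPQ cells was 9.49% in HLE, 13.1% in SK-HEP1, 24.2% in Hep3b, 26.0% in Huh7, 40.4% in Huh1 and 45.2% in HepG2. The depth of a library, estimated from low values, was 0.366 to 1.80 times the median, lowest in the siSFPQ library of Huh7 with TGF-beta.

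The lines were checked against 12 hepatocyte markers. The markers summed to 1161 to 20637 FPKM in the libraries of Huh1, Huh7 and HepG2, and to 14.9 to 125 FPKM in those of Hep3b, HLE and SK-HEP1. The libraries labelled Hep3b held albumin at 0.51 to 0.95 FPKM and HNF4A at 0.37 to 0.79 FPKM, against what this line is known for, so counts are also given without them. The 7 endothelial markers summed to at most 3.42 FPKM in any library. In bulk RNA, fewer cells of a type and less RNA per cell cannot be told apart.

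Promoters that hold a CArG box are shown first, because SRF is itself a member and fell on SFPQ knockdown. RefSeq promoters of GRCh38.p14 were matched by symbol for 42 of the 46 genes, and TAGLN, PDLIM2, ACTB and MYL9 had no entry. A CArG box was counted only as CC, 6 bases of A or T, and GG, so looser forms were missed. A CArG box stood within 250 bases before a RefSeq start in 9 of these 42 genes (21.4%), on either strand, against 252 of 15843 protein-coding genes (1.59%). Counted per start, it stood in 11 of 73 starts of the members (15.1%) and in 1.18% of all starts. The members were chosen by name and many are known SRF targets, so these shares are not independent of that choice. The 9 genes were ACTG1, ACTN1, CNN2, FHL2, FLNA, MYLK, SRF, TES and TPM4. They are the exact matches and not a list of SRF targets. The 6 stretches below are those of the factor itself, of the other CArG box genes called on knockdown without TGF-beta, and of TPM4, which was called with TGF-beta in both siRNA backgrounds. They read 5′ to 3′ on the gene's strand, end before the start site, and have the CArG box in capitals. They lie at chr6:43171184-43171268 (SRF, plus strand), chr17:81512829-81512948 (ACTG1, minus), chr3:123620578-123620697 (MYLK, minus), chrX:154374664-154374783 (FLNA, minus), chr7:116222703-116222775 (TES, plus) and chr19:16067310-16067429 (TPM4, plus).
SRF: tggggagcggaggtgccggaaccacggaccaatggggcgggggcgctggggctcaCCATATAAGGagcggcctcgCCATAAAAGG
ACTG1: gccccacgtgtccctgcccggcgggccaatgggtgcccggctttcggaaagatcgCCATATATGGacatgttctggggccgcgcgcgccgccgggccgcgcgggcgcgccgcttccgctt
MYLK: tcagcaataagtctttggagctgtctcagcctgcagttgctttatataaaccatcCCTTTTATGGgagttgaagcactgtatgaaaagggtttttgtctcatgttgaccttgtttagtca
FLNA: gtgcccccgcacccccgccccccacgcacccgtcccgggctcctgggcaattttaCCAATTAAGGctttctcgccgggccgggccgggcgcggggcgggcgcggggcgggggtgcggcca
TES: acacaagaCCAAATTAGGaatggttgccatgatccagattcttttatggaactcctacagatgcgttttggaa
TPM4: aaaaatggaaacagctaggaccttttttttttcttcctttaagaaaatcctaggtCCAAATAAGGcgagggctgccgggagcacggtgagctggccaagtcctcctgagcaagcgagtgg

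SRF has a pair of boxes close together, with 10 bases between them. Among the other motifs searched on both strands, the MCAT motif CATTCC, bound by TEAD factors, stood in 15 of the 42 genes (35.7%) and in 13.5% of protein-coding genes. The SMAD motif CAGAC stood in 22 (52.4%) and in 43.8% of protein-coding genes. A match describes these letters in these windows and is no measure of binding.

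The cell line was the largest source of variation for most members. Over the 46 genes the line took a median of 88.5% of the variance of log2 levels, against 87.6% over 13493 genes tested. TGF-beta took a median of 2.04% in the members and 0.517% over all genes, and the siRNA 1.41% and 2.22%. DBN1 was the 1 member with more variance between siRNAs (47.3%) than between lines (36.6%). SRF had nearly as much between siRNAs (43.4%) as between lines (44.7%), and PDLIM7 had 35.5% of its variance between TGF-beta states. HepG2 was the line with the lowest mean for 20 members, and Huh7, HLE and SK-HEP1 each had the highest for 11.

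The tropomyosins show how far the lines differ in make-up. Tropomyosins are rod-shaped dimers that lie along the filament and set which myosins and severing proteins reach it. TPM1 was at 1351 ± 590 FPKM (SD, n = 4 libraries of a line) in HLE and 1012 ± 296 in SK-HEP1, which overlapped, at 331 ± 167 in Huh1, and at 80.4 ± 30.3 to 112 ± 24.5 in HepG2, Huh7 and Hep3b. Its share of the summed tropomyosin level therefore ran from 11.5% in the siSFPQ library of Hep3b to 83.4% in the siSFPQ library of HLE with TGF-beta. TPM2 was instead highest in Hep3b (314 ± 14.3 FPKM), where no library overlapped those of the next line, and, like TPM1, it was lowest in HepG2 (8.93 ± 1.98 FPKM).

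Several contractile genes were near 0 in some lines. FLNC, the filamin of muscle, was at 428 ± 303 FPKM (SD, n = 4) in SK-HEP1 and 154 ± 69.8 in HLE, at 1.48 ± 0.83 to 6.83 ± 6.70 in Hep3b, Huh1 and Huh7, and at 0.76 ± 0.04 in HepG2. CALD1, caldesmon, an inhibitor of actomyosin, ran the other way, with 146 ± 67.1 FPKM in Huh7 against 14.8 ± 15.1 in HLE and 3.99 ± 2.87 in SK-HEP1. MYL9, the regulatory light chain of contractile myosin, was at 814 ± 122 FPKM in SK-HEP1 and at 163 ± 23.3 or less in every other line, with no overlap. CNN1 and ACTA2, both smooth muscle genes, reached 1 FPKM in 11 and 12 of 24 libraries. A line in which a gene is near 0 can hardly show a fall of it.

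**Figure D1:**
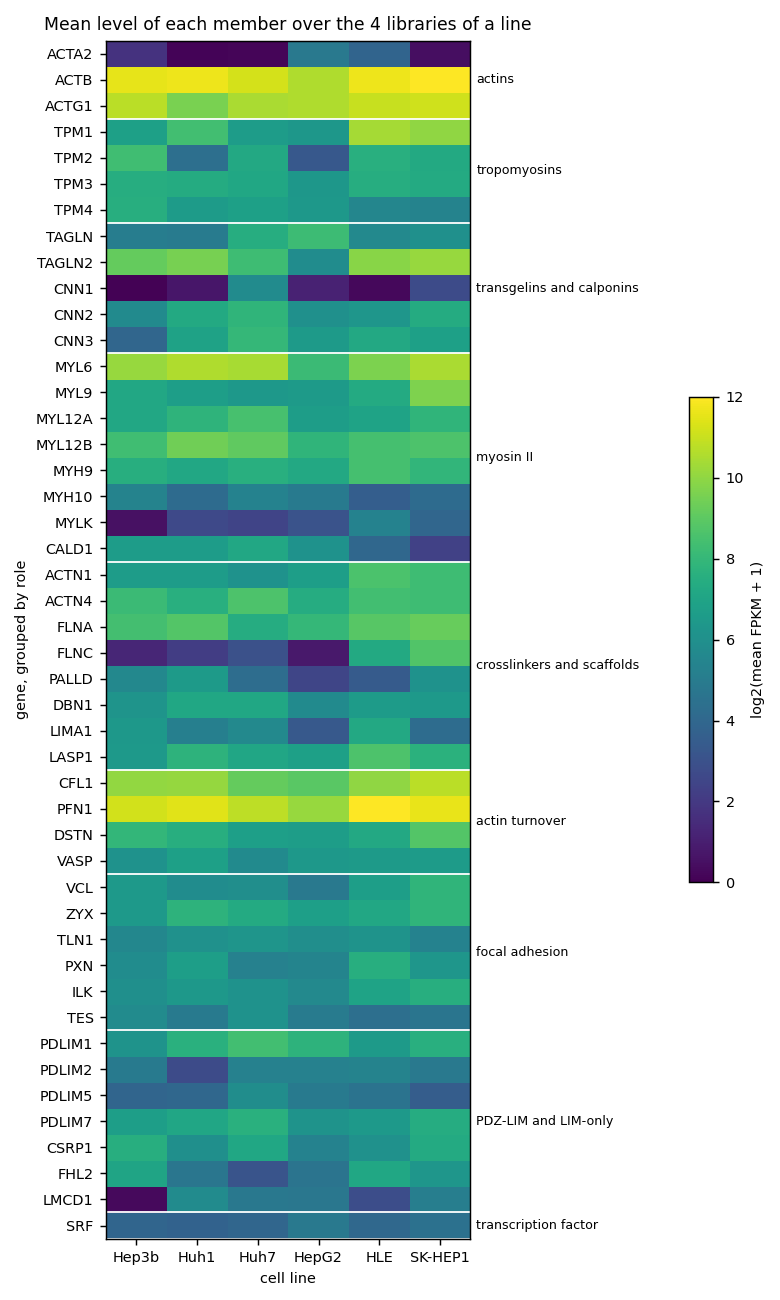
Mean level of each of the 46 genes (rows, grouped by role) over the 4 libraries of a line (columns), as log2 of mean FPKM + 1 on a colour scale from 0 to 12. ACTB and PFN1 are bright in every line, while CNN1, ACTA2, FLNC, MYLK and LMCD1 are dark in some lines, and TPM1, TPM2 and CALD1 change order between lines.

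With TGF-beta in siCTL cells, 4 of the 45 members tested rose and 0 fell. They were TAGLN (1.39, SE 0.12, adjusted p = 0.0154), PDLIM7 (0.85, SE 0.10), TPM1 (0.80, SE 0.09) and TPM4 (0.46, SE 0.06), the last 3 at adjusted p = 0.0421, and each was higher in 6 of 6 lines. Of 12164 genes tested, 0.0658% rose and 0.0329% fell. CNN1 was not tested, as too few libraries reached 1 FPKM.

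TAGLN, transgelin or SM22, binds actin filaments and marks early smooth muscle differentiation. In siCTL cells it was at 18.7 FPKM in Hep3b, 18.8 in Huh1, 80.7 in Huh7, 164 in HepG2, 24.1 in HLE and 49.1 in SK-HEP1. With TGF-beta it was at 48.7, 44.7, 336, 435, 65.9 and 94.6 FPKM in the same order. This order of lines is kept below. The 2 groups overlapped because the lines start far apart, while within each line the level was 1.93 to 4.17 times that without TGF-beta.

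TPM1 was at 97.9, 194, 86.3, 57.3, 811 and 972 FPKM in siCTL cells of the lines in that order, and at 138, 415, 139, 104, 1797 and 1422 FPKM with TGF-beta. The ratio within a line was 1.41 to 2.22. The share of TPM1 in the summed tropomyosin level was higher with TGF-beta in 6 of 6 lines in siCTL cells and in 6 of 6 in siSFPQ cells. PDLIM7, also called Enigma, carries a PDZ and LIM domains and sits on actin filaments. It was at 31.6 FPKM in HepG2 to 114 in SK-HEP1 without TGF-beta and at 65.9 in HepG2 to 230.2 in Huh7 with it, 1.41 to 2.26 times higher within a line.

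Most other members were higher as well, without passing the threshold. At an unadjusted p under 0.05, 32 members were higher and 2 lower, where 6.23% and 9.46% of all genes were. In 6 of 6 lines, 22 members were higher and 1, MYH10, was lower, against 3.83% and 6.09% of all genes. The median change was 0.23 over the members and -0.03 over all genes tested. The members closest to a call were ACTG1 (0.31, adjusted p = 0.0544), ZYX (0.51) and MYL9 (0.62), both at adjusted p = 0.0652, and TAGLN2 (0.62, adjusted p = 0.0681). All 6 focal adhesion genes and all 4 genes of actin turnover had changes above 0, between 0.03 and 0.51 and between 0.19 and 0.24.

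All 4 genes were also called without Hep3b, where there were 5 calls, but the calls depended on the other lines: without either SK-HEP1 or Huh7 there was 1, and without Huh1, HepG2 or HLE there were 0. The summed level of 6 stellate cell and fibroblast markers had a median of 49.6 FPKM (range 4.92 to 152) in siCTL cells and 80.0 FPKM (10.5 to 207) with TGF-beta. Its part in these changes was not tested.

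In siSFPQ cells, 18 of 46 members rose with TGF-beta and 0 fell, where 2.33% of 11883 genes rose and 3.0% fell. All 18 were higher in 6 of 6 lines. All 4 genes called in siCTL cells were among them: TAGLN (1.36, SE 0.23, adjusted p = 0.0296), PDLIM7 (1.02, SE 0.08, adjusted p = 0.0073), TPM1 (0.85, SE 0.14) and TPM4 (0.53, SE 0.06, adjusted p = 0.0098). The other 14 covered nearly all roles. They were the actins ACTB (0.48) and ACTG1 (0.31), TAGLN2 (0.79), the heavy chain MYH9 (0.48), CALD1 (0.63), the crosslinkers ACTN1 (0.53), ACTN4 (0.40), FLNA (0.47), PALLD (0.49) and DBN1 (0.31), profilin PFN1 (0.26), and the adhesion genes ZYX (0.64) and PXN (0.50). LMCD1 had the largest change (2.2, SE 0.45, adjusted p = 0.0377).

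LMCD1, also called dyxin, is a LIM-domain regulator of transcription known from heart and muscle. In siSFPQ cells it was at 0.26 FPKM in Hep3b, 33.0 in Huh1, 11.6 in Huh7, 5.09 in HepG2, 0.21 in HLE and 22.6 in SK-HEP1. With TGF-beta it was at 0.30, 93.6, 67.5, 53.3, 21.4 and 84.7 FPKM in the same order. Hep3b stayed near 0, and the other 5 lines were at 21.4 FPKM or more with TGF-beta, all but Huh1 and SK-HEP1 from a level under 12 FPKM. In siCTL cells the change of LMCD1 was 0.93 (SE 0.24, adjusted p = 0.134).

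PDLIM7 was at 62.6 FPKM in HepG2 to 147 in SK-HEP1 in siSFPQ cells and at 115 in Hep3b to 329.8 in Huh7 with TGF-beta. Within a line it was 1.72 to 2.70 times higher. TAGLN was at 15.7 FPKM in Huh1 to 163 in HepG2, and at 44.6 in Hep3b to 430.3 in HepG2 with TGF-beta, 1.32 to 6.12 times higher within a line. The lowest of these TAGLN ratios was in SK-HEP1 and the highest in Huh7, as in siCTL cells (1.93 and 4.17). The siSFPQ library of Huh7 with TGF-beta was the shallowest of all.

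**Figure D2:**
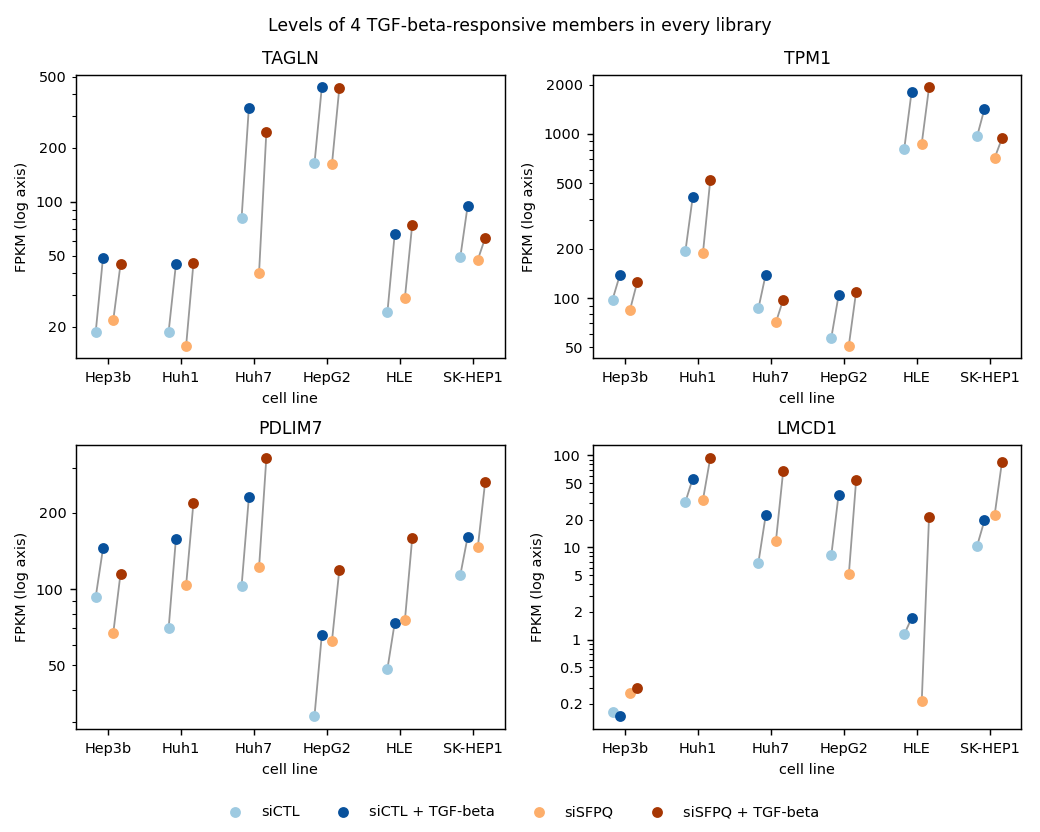
Level in FPKM (log axis) of TAGLN, TPM1, PDLIM7 and LMCD1 in each of the 24 libraries, by cell line, with a grey line joining the library without TGF-beta to the one with it. TAGLN, TPM1 and PDLIM7 are higher with TGF-beta in all 12 pairs, and LMCD1 in Hep3b stays under 1 FPKM in all 4 libraries.

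TES (0.31, adjusted p = 0.0502) and FLNC (0.99, adjusted p = 0.0553) narrowly missed the threshold. FLNC was at 1.95 FPKM in Huh1 and 10.9 with TGF-beta, at 3.97 and 16.8 in Huh7, and at 0.73 and 0.77 in HepG2, so the lines were far apart. CNN1, calponin, was at 3.65 FPKM in Huh7 and 109 with TGF-beta and at 10.9 or less in every other siSFPQ library, and was not called. A pair of members was lower in 6 of 6 lines, MYLK, the kinase of the myosin light chain (-0.46, adjusted p = 0.0974), and LASP1 (-0.21, adjusted p = 0.128), and neither was called. At an unadjusted p under 0.05, 29 members were higher and 2 lower, against 8.92% and 19.4% of all genes, and 24 were higher and 2 lower in 6 of 6 lines, against 5.92% and 13.1%. The median change was 0.31 over the members and -0.06 over all genes tested. Without Hep3b 13 members rose, without SK-HEP1 8, without Huh7 7, without HepG2 or HLE 3 each, and without Huh1 2. The summed stellate and fibroblast markers had a median of 47.5 FPKM (range 5.24 to 179.99) without TGF-beta and 117 FPKM (20.3 to 319) with it, and their part in these changes was not tested.

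The interaction sets the response to TGF-beta under siSFPQ against that under siCTL. Of 46 members 0 were called in either direction by limma, where 0.222% of 13493 genes were called higher and 0.0296% lower. The larger number of calls in siSFPQ cells is therefore not shown to be a different response of the members. The difference is the change in siSFPQ cells minus that in siCTL cells. At an unadjusted p under 0.05 it was above 0 for 8 members and below 0 for 4, against 5.24% and 7.27% of all genes. In 6 of 6 lines the difference was above 0 for 7 members and below 0 for 2, against 2.92% and 4.31% of all genes. All 15 alternatives also gave 0 calls.

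The smallest p-values were those of PXN, ACTN4 and FLNC. PXN, paxillin, a docking protein of focal adhesions, responded by 0.27 in siCTL and 0.50 in siSFPQ cells, a difference of 0.22 (SE 0.06, 95% interval 0.09 to 0.35, adjusted p = 0.202), larger in 6 of 6 lines. ACTN4, alpha-actinin 4, differed by 0.23 (0.09 to 0.37, adjusted p = 0.222), also in 6 of 6 lines. It was at 168 to 365 FPKM in siCTL cells and 192 to 446 with TGF-beta, and at 117 to 330.4 in siSFPQ cells and 194 to 447 with TGF-beta. FLNC differed by 0.74 (0.29 to 1.20, adjusted p = 0.229) in 5 of 6 lines.

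LMCD1 differed by 1.26, with a wide interval of 0.22 to 2.31 (adjusted p = 0.331). For TAGLN the difference was -0.03, and TPM1, TPM4 and PDLIM7 differed by 0.05, 0.07 and 0.17, with none called.

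**Figure D3:**
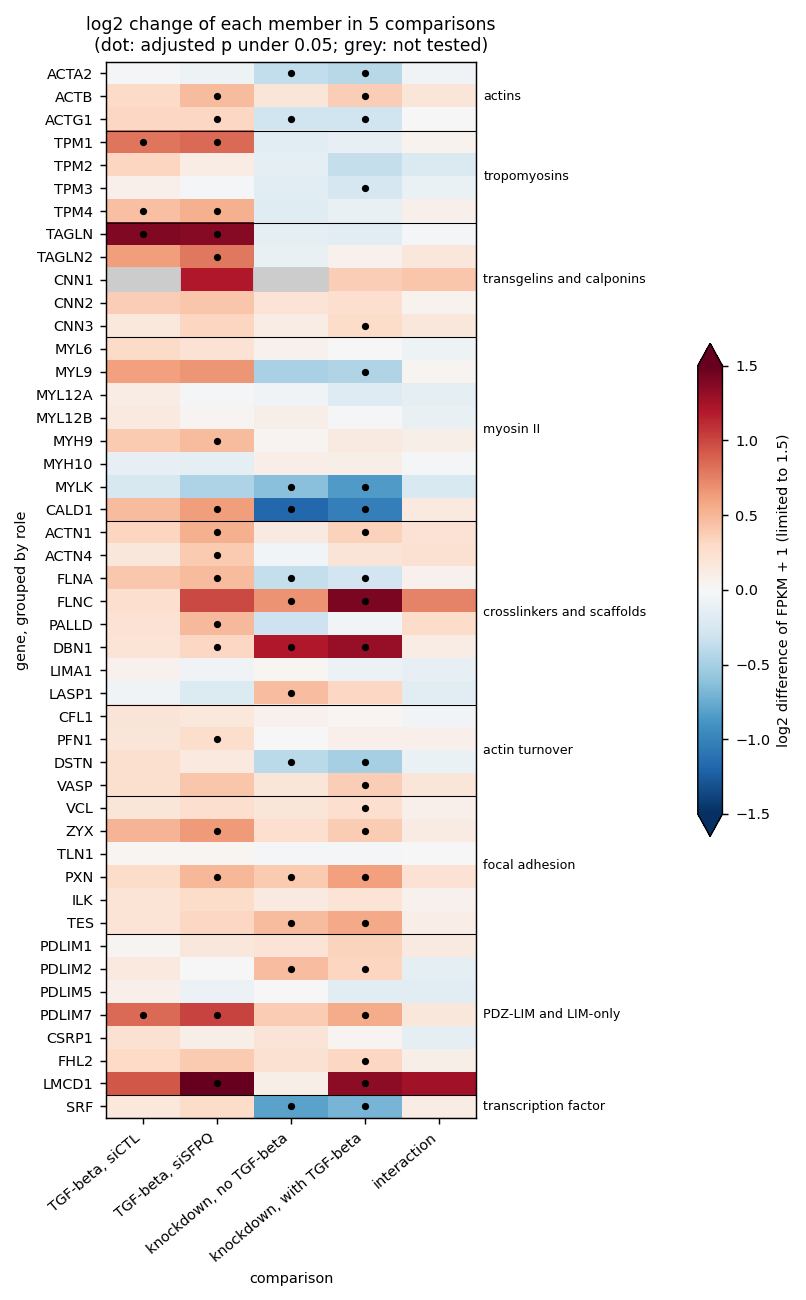
Log2 change of each of the 46 genes (rows, grouped by role) in the 5 comparisons (columns), red for higher and blue for lower, limited to 1.5 in either direction. Dots mark the 4, 18, 13 and 23 calls of the TGF-beta and knockdown comparisons, the interaction column holds 0 dots, and CNN1 is grey where it was not tested.

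SFPQ knockdown without TGF-beta moved members in both directions. Of 45 tested, 6 rose, where 6.69% of 12010 genes did, and 7 fell, where 15.0% did. The risers were DBN1 (1.20, SE 0.22, adjusted p = 0.0078), FLNC (0.67), TES (0.47), LASP1 (0.46), PDLIM2 (0.46) and PXN (0.39, SE 0.08, adjusted p = 0.0098). Those that fell were CALD1 (-1.18, SE 0.26, adjusted p = 0.0146), SRF (-0.81, SE 0.12, adjusted p = 0.0043), MYLK (-0.62), DSTN (-0.41), ACTA2 (-0.37), FLNA (-0.35) and ACTG1 (-0.30). ACTA2 was under 1 FPKM in every library of Huh1, Huh7 and SK-HEP1, and its call held in 3 of the 10 alternatives that tested it. MYLK and FLNC were also near 0 in some lines. The share that fell, 15.6% of the members, is close to that of all genes. In 6 of 6 lines 5 members were higher and 5 lower, against 8.61% and 17.5% of all genes. This comparison and the TGF-beta response of siCTL cells share the untreated siCTL libraries.

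DBN1, drebrin, binds the sides of actin filaments and is best known from dendritic spines. It was at 50.6, 97.4, 99.5, 28.9, 35.3 and 27.8 FPKM in siCTL cells of Hep3b, Huh1, Huh7, HepG2, then HLE and SK-HEP1. In siSFPQ cells it was at 78.4, 169, 142, 67.4, 133 and 133 FPKM. Within a line it was 1.42 times (Huh7) to 4.77 times (SK-HEP1) higher. The 2 highest ratios were in SK-HEP1 and HLE, the lines that kept least SFPQ. HepG2, the line that kept most, came next at 2.33, ahead of Huh1 (1.74), Hep3b (1.55) and Huh7. The part of knockdown depth in this order was not tested.

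SRF was at 17.1, 14.2, 17.7, 30.6, 19.5 and 27.1 FPKM in siCTL cells of the same lines and at 9.75, 7.57, 10.4, 25.2, 8.66 and 11.2 FPKM in siSFPQ cells. It was lower in 6 of 6 lines, by 1.21-fold in HepG2 to 2.42-fold in SK-HEP1. HepG2, the line that kept most SFPQ, alone overlapped the siCTL range of the other lines.

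CALD1 was at 111, 85.5, 163, 69.7, 17.6 and 5.58 FPKM in siCTL cells and at 64.6, 73.6, 77.5, 39.7, 1.92 and 1.24 FPKM in siSFPQ cells. The fall was 9.17-fold in HLE and 4.49-fold in SK-HEP1, and 1.16-fold in Huh1. FLNC was at 94.2 and 160 FPKM in HLE and at 173 and 501 in SK-HEP1, and under 4 FPKM in both groups of the other 4 lines, so its call rests on levels near 0 in most lines.

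With TGF-beta, 14 members were higher in siSFPQ than in siCTL cells, where 8.47% of 12021 genes were, and 9 were lower, where 21.8% were. Of the 13 genes called without TGF-beta, 12 were called again, and LASP1 was not (0.31, adjusted p = 0.0568). The libraries are others, but of the same lines and siRNAs, and 30.3% of all genes were called with TGF-beta in either direction. The share of all genes called in both comparisons was not counted. The 6 risers with the largest changes were FLNC (1.41, SE 0.30, adjusted p = 0.0104), LMCD1 (1.35, SE 0.33, adjusted p = 0.0181), DBN1 (1.31, SE 0.24, adjusted p = 0.0065), PXN (0.61, SE 0.07, adjusted p = 0.0024), TES (0.57) and PDLIM7 (0.55). The other 8 were ZYX (0.38), ACTB (0.37), VASP (0.36), ACTN1 (0.34), PDLIM2 (0.33), FHL2 (0.31), CNN3 (0.27) and VCL (0.26). Focal adhesion genes gave 4 of these calls (PXN, TES, ZYX and VCL), and all 7 PDZ-LIM and LIM-only genes except PDLIM5 had changes above 0.

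The 9 that fell were CALD1 (-1.03), MYLK (-0.85), SRF (-0.70, SE 0.11, adjusted p = 0.0044), DSTN (-0.50), MYL9 (-0.45), ACTA2 (-0.42), ACTG1 (-0.30), FLNA (-0.29) and TPM3 (-0.25). The call of ACTA2, near 0 in the same 3 lines, held in 4 of the 10 alternatives that tested it. None of the 8 genes of myosin II and its regulators rose, and 3 fell. MYL9, a light chain, was the only myosin subunit among these 3. Its call held in 13 of 15 alternatives but was lost with libraries scaled to a common median ratio. MYLK, a kinase of the light chain, and CALD1, an inhibitor of actomyosin, are regulators. The effect of these falls on contraction was not tested. The share that fell, 19.6% of the members, was no higher than that of all genes (21.8%). In 6 of 6 lines 12 members were higher and 5 lower, against 9.2% and 23.4% of all genes. DSTN, destrin, which severs filaments, fell with and without TGF-beta, while its relative CFL1, cofilin, was not called in either comparison.

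With TGF-beta, FLNC was at 1.06, 0.83, 3.94, 0.81, 111 and 211 FPKM in siCTL cells of the lines in the same order, and at 2.69, 10.9, 16.8, 0.77, 250 and 827 FPKM in siSFPQ cells. It was higher in 5 of 6 lines, HepG2 being the exception. LMCD1 was at 0.15, 55.9, 22.2, 37.5, 1.71 and 19.6 FPKM in siCTL cells and at 0.30, 93.6, 67.5, 53.3, 21.4 and 84.7 in siSFPQ cells, higher in 6 of 6 lines. DBN1 was at 62.4, 122, 112, 34.6, 41.9 and 26.5 FPKM against 105, 184, 205, 78.2, 169 and 158, again with its highest ratios in SK-HEP1 (5.97) and HLE (4.05). PXN was at 48.3, 109, 32.3, 36.7, 152 and 73.1 FPKM against 71.3, 153, 50.2, 56.7, 284 and 102, a ratio of 1.40 to 1.87 in every line.

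**Figure D4:**
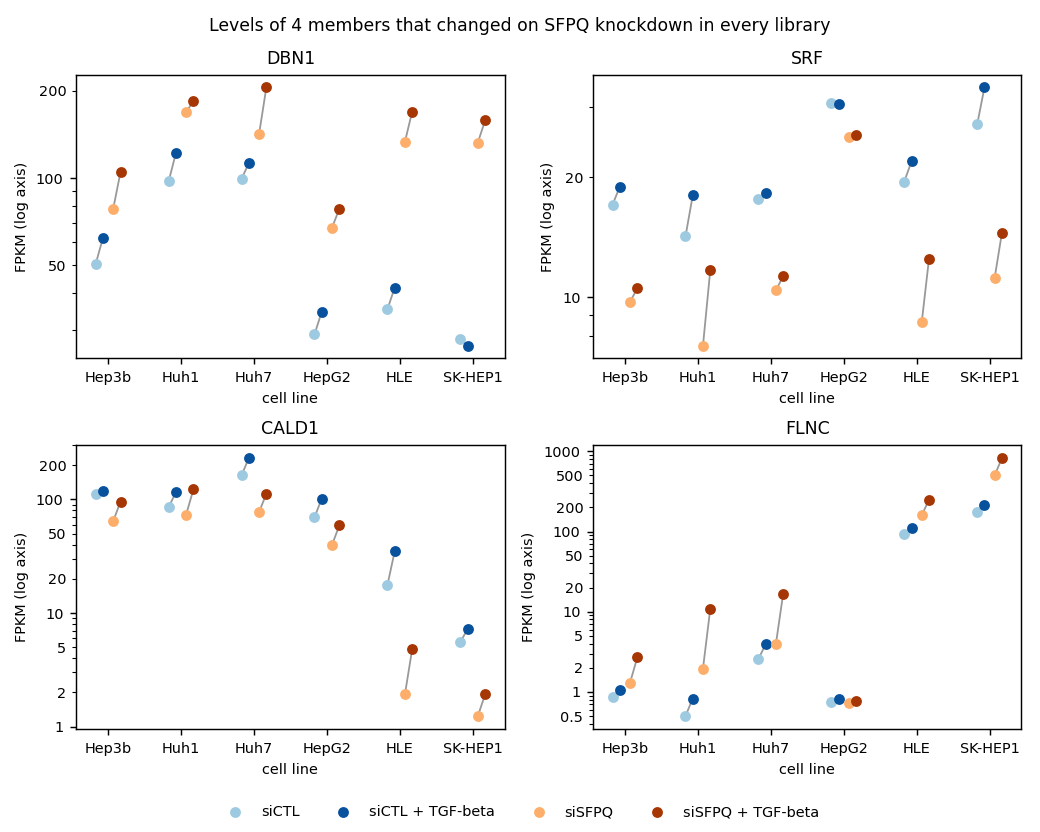
Level in FPKM (log axis) of DBN1, SRF, CALD1 and FLNC in each of the 24 libraries, by cell line, blue for siCTL and orange for siSFPQ. DBN1 is higher and SRF lower in siSFPQ cells of all 6 lines, CALD1 shows its widest gap in HLE and SK-HEP1, and FLNC in HepG2 stays under 1 FPKM.

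The summed stellate and fibroblast markers, of which 2 to 5 of 6 reached 1 FPKM in a line, had medians of 49.6 FPKM in siCTL and 47.5 in siSFPQ cells, and of 80.0 (range 10.5 to 207) and 117 (20.3 to 319) with TGF-beta. The 5 smooth muscle markers, of which 1 to 3 reached 1 FPKM in a line, had medians of 50.4 FPKM (12.9 to 85.0) and 33.1 (10.7 to 88.8), and of 67.2 (21.3 to 138) and 56.0 (16.3 to 187) with TGF-beta. Most of the smooth muscle sum was SMTN in every library, and MYH11, ACTG2, DES and LMOD1 were each at 3.77 FPKM or less. LUM held most of the stellate and fibroblast sum in Huh1, and COL3A1 in Hep3b. The sums thus follow single genes in these lines and are no measure of a cell type. The part of the marker sums in the knockdown changes was not tested.

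Calls of knockdown depended on scaling and on lines. With libraries scaled to a common median ratio, 6 members rose and 3 fell without TGF-beta, and 19 rose and 4 fell with it. Over all genes the shares higher and lower were then 9.79% and 11.5% without TGF-beta, and 13.2% and 14.3% with it. With each library's GC trend removed the members' counts were 6 and 3, and 18 and 6, beside 11.9% and 10.7%, and 15.7% and 13.0%, of all genes. The calls lost to scaling without TGF-beta were ACTA2, ACTG1, DSTN and FLNA, and those lost with TGF-beta were ACTA2, ACTG1, FLNA, MYL9 and TPM3. Leaving out 1 line gave 2 to 5 risers and 3 to 5 that fell without TGF-beta (5 and 3 without Hep3b, 2 and 3 without SK-HEP1), and 7 to 11 and 5 to 9 with it (11 and 7 without Hep3b, 7 and 5 without SK-HEP1).

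ACTB and ACTG1 encode the cytoplasmic beta- and gamma-actin. On knockdown without TGF-beta the change of ACTB was 0.19 (adjusted p = 0.133) and that of ACTG1 -0.30, and their ratio was examined after these values were seen. Without TGF-beta the ratio of ACTB to ACTG1 was 1.64 ± 0.89 (SD, n = 6) under siCTL and 2.27 ± 1.10 under siSFPQ, and with TGF-beta it was 1.67 ± 1.08 and 2.64 ± 1.59. By line it was 1.42 and 2.02 in Hep3b, 3.40 and 4.34 in Huh1, 1.55 and 2.00 in Huh7, 0.89 and 1.10 in HepG2, 1.23 and 1.81 in HLE, and 1.33 and 2.32 in SK-HEP1. It was higher in siSFPQ cells of 6 of 6 lines, 1.24 to 1.75 times without and 1.43 to 1.88 times with TGF-beta. The sum of both actins was 3998 ± 1205 FPKM in siCTL and 3989 ± 1159 in siSFPQ cells. These means hide a fall in HLE, from 4933 to 3828 FPKM, while the sum was higher in siSFPQ cells of every other line. With TGF-beta the sum was 4885 ± 1221 FPKM in siCTL and 5319 ± 1198 in siSFPQ cells. With TGF-beta the ratio was higher in 3 of 6 lines in siCTL cells and in 6 of 6 in siSFPQ cells.

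**Figure D5:**
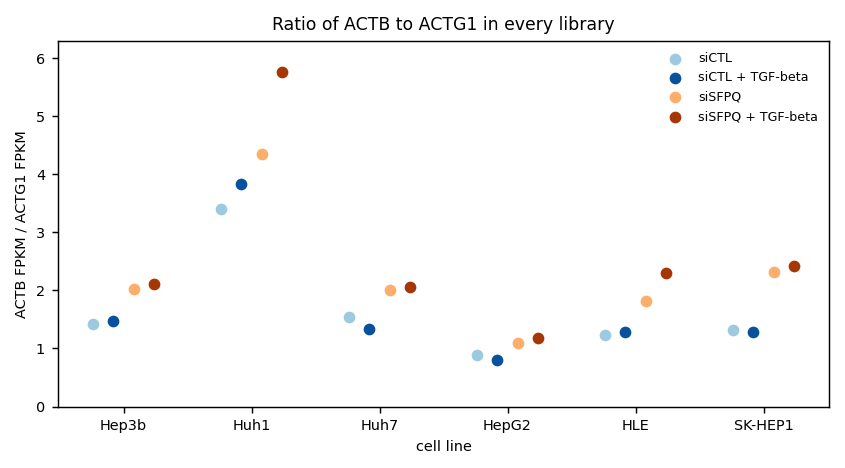
Ratio of the FPKM of ACTB to that of ACTG1 in each of the 24 libraries, by cell line and group, on a linear axis from 0. In each of the 6 lines both siSFPQ libraries (orange) lie above both siCTL libraries (blue), and Huh1 has the highest ratio in every group.

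ACTB, ACTG1, CFL1, PFN1, TPM3, MYL6, MYL12A, MYL12B, TAGLN2 and DSTN have close paralogs or processed pseudogenes. Their values are uncertain as far as shared reads were split between copies. Whether the libraries keep strand is not given in the sources used here, so reads of ACTA2 or MYLK cannot be told apart from antisense transcripts at the same place.

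Of the 9 genes with a CArG box, 1 rose and 4 fell on knockdown without TGF-beta, and 3 rose and 4 fell with it. Of all genes, 6.69% rose and 15.0% fell without TGF-beta, and 8.47% and 21.8% with it. SRF, ACTG1, MYLK and FLNA fell in both, and TES rose in both, but ACTG1 and FLNA were not called in either comparison under median-ratio scaling. ACTN1 (0.34) and FHL2 (0.31) were the other 2 risers with TGF-beta. In the TGF-beta response, TPM4 alone of the 9 was called in siCTL cells, and ACTG1, ACTN1, FLNA and TPM4 in siSFPQ cells.

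Other genes of the same machinery were read from 3 lists. Their counts on knockdown stand beside the same shares of all genes, 6.69% higher and 15.0% lower without TGF-beta and 8.47% and 21.8% with it. Among 16 measured SRF co-activators and immediate targets, 6 rose and 0 fell on knockdown without TGF-beta, and 6 and 0 with it, while SRF itself fell. They included TUFT1, tuftelin (0.76 and 0.90), and CYR61 (1.19 and 1.36) and CTGF (0.57 and 1.07), secreted matrix-associated proteins that are also targets of YAP and TEAD.

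Among 27 genes of Arp2/3, capping and nucleation, 4 rose and 3 fell without TGF-beta, and 5 rose and 4 fell with it. The falls are no more frequent than among all genes. CTTN, cortactin, which stabilises branched filaments, rose by 0.96 in each, while CAPZB, the beta subunit of capping protein, fell (-0.88 and -0.82), as did ARPC3, a subunit of Arp2/3 (-0.64 and -0.72). Among 24 genes of the integrin adhesion core, 2 rose and 2 fell, and then 3 and 3, with no larger share of falls than among all genes. BCAR1, the adaptor p130Cas, rose by 0.65 and 0.55, and TNS3, tensin 3, fell (-0.94 and -0.66).

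The same 3 lists gave 0 calls by limma with TGF-beta in siCTL cells, where an unadjusted p under 0.05 took in 25 of their 67 genes as higher and 0 as lower, beside 6.23% and 9.46% of all genes. In siSFPQ cells they gave 7, all higher, where 2.33% of all genes rose and 3.0% fell. One was LIMS1, the integrin-linked kinase partner PINCH (0.50, adjusted p = 0.0332), and 6 were of the SRF list, among them MKL1 (0.80, adjusted p = 0.0228), FHL3 (0.65) and TUFT1 (0.52). The median change with TGF-beta in siSFPQ cells was 0.31 in the SRF list, 0.07 in the Arp2/3 list and 0.12 in the adhesion core, beside 0.31 in the members. The interaction gave 0 calls by limma in all 3 lists. An unadjusted p under 0.05 took in 8 of the 67 genes above 0 and 2 below 0, beside 5.24% and 7.27% of all genes.

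SFPQ is known to act on long genes, so gene span was set beside the knockdown change. Across genes, which are not independent replicates, the rank correlation of span with change was -0.07 over 45 members without TGF-beta and -0.02 over 46 with it, and -0.13 and -0.08 over all genes with a span. GC content gave 0.25 and 0.31 over the members and 0.13 and 0.17 over all genes. PALLD, MYLK and CALD1, the longest members at 431, 274 and 259 kb, changed by -0.31, -0.62 and -1.18 without TGF-beta, PALLD without a call. Of 16 members over 50 kb, 2 rose and 3 fell (12.5% and 18.8%), beside 5.77% and 18.8% of all genes of that span. The part of span in these changes was not tested.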

How the data were processed

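RNA-seq of 24 libraries was used. Per the labels' protocols, RNA was taken up in Trizol and libraries came from a VAHTS mRNA-seq kit. The build hg19 and the tools Cufflinks 2.2.1 and TopHat2 2.1.1 are named per the submitters' processing notes. The annotation was not given in the sources used here. What the authors deposited is 1 table, named as counts but holding FPKM. It had 23284 rows, from which 1628 of short RNAs were dropped. 2 columns of no sample, both empty, were not used.

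limma 3.58.1 in R 4.3.3 was run on log2(FPKM + 1) with the cell line as a block and eBayes with trend and robust options. Genes needed 1 FPKM in at least 6 of the libraries compared. Each fit had 5 residual degrees of freedom. Adjusted p-values are Benjamini-Hochberg over all genes tested. In the interaction fit, the effects of siRNA and of TGF-beta were free to differ by line. The fits were tested on simulated data. Labels name the line of each library, and deviations from group means correlated by 0.874 to 0.978 within a line and by -0.514 to 0.410 between lines and groups. Separate cultures within a line are not named.

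The members and lists were chosen with earlier results of these data known. Every called member is named, the 3 called members with the largest change per comparison get values by library, and lists name called genes with the smallest p. One further list of genes is not reported here. Depth came from low values with an assumed fragment length of 180 bases. GC came from GENCODE, span from RefSeq and promoters from RefSeq GRCh38.p14, a build other than that of the files, matched by symbol. TAGLN, PDLIM2, ACTB and MYL9 had no promoter entry. Alternatives changed the offset, the filter, the scaling, the shrinkage, the block and the lines included.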

Additional observations from a re-analysis of the deposited data

Results flagged for a closer look

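The change of PXN on SFPQ knockdown with TGF-beta was 0.90 in HLE and lay apart from the other 5 lines, which were between 0.48 and 0.62. The gap was 0.671 of the whole range, above Dixon's critical value of 0.625 for 6 samples. Of 61 changes examined this was the 1 that stood apart, where chance flags about 5% of groups. HLE kept 10.7% of its SFPQ level with TGF-beta, the lowest of the lines. SK-HEP1, the next lowest at 16.4%, had the smallest PXN ratio of the lines (1.40). The part of knockdown depth in the change of PXN was not tested.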

How the results depend on the processing

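The 58 called changes and the 3 interaction changes with the smallest p were refitted under the 15 alternatives, and none of these 61 reversed its sign: of 903 values, 573 kept their side of the threshold and 330 were no longer called. Removing the GC trend and leaving out Huh7 with HepG2, the lines of the shallowest libraries, were chosen after seeing the data.

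Leaving out each line in turn gave 0 to 5 higher calls for TGF-beta in siCTL cells and 2 to 13 in siSFPQ cells. For knockdown it gave 2 to 5 higher and 3 to 5 lower without TGF-beta, and 7 to 11 higher and 5 to 9 lower with it. Without the replicate block of cell lines 0 members were called in any comparison. Without a filter on low values the higher calls were 0 and 2 for TGF-beta in siCTL and siSFPQ cells, knockdown gave 2 higher and 1 lower, and with TGF-beta 6 higher and 6 lower. Shrinkage without trend and robust left 1 TGF-beta call in siCTL cells. Scaling to a common median ratio left 3 lower calls on knockdown and 4 with TGF-beta, and moved the higher calls to 6 and 19. GC removal left 3 lower calls on knockdown without TGF-beta. Without Huh7 and HepG2 the higher calls were 1 and 2 for TGF-beta, knockdown gave 3 higher and 2 lower, and with TGF-beta 6 higher. An offset of 0.1 or 0.5 and a filter of 5 FPKM kept every count within 1.5 times. The causes were not tested. The interaction gave 0 calls throughout. The deposited values hold no counts, so the counting error of low genes such as CNN1, ACTA2 and LMCD1 is unknown.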
